A study of Mus musculus with 2 samples.

Results

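The 10 genes described here encode proteins of the cascade that turns absorbed light into an electrical signal in rod photoreceptors, and proteins that bind to its members. They are the rod transducin subunits Gnat1, Gnb1 and Gngt1, the phosphodiesterase subunits Pde6a, Pde6b and Pde6g, the channel subunits Cnga1 and Cngb1, and the binding proteins Pdc (phosducin, for transducin) and Sag (rod arrestin, for rhodopsin). They were chosen by function, as every probe set whose platform gene symbol was one of these names alone, which gave 16 probe sets among 34958 with 1 symbol, and 10 genes among 18193. The tissue was the eye cup, the back of the eye with retina, pigment epithelium, choroid and sclera, of mice at postnatal day 13. One group was Mfsd2a KO, a knockout of the lysophosphatidylcholine transporter that carries docosahexaenoic acid into brain and eye, and the other was wild type (WT). Per the labels, a genotype's sample was the pooled RNA of 6 animals, read on 1 Affymetrix Mouse 430 2.0 array, so a pool, not an animal, stands behind every value. The labels give neither the strain nor the part of Mfsd2a that is deleted, and they do not name any other allele or treatment.

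In a rod, light-activated rhodopsin makes transducin exchange GDP for GTP on its alpha subunit, which then leaves the beta and gamma subunits and takes the inhibitory gamma subunits off phosphodiesterase 6. The freed catalytic subunits break down cyclic GMP, and the cyclic GMP-gated channel of the outer segment closes. Docosahexaenoic acid is a major fatty acid of the outer segment membranes in which these proteins work. Rods are the most numerous cells of the mouse retina, and at the age sampled their outer segments are still growing.

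Transcription of rod genes is driven largely by the homeobox factor CRX and the leucine zipper factor NRL. Promoter sequences of RefSeq (assembly GRCm38.p6) were matched for 7 of the 10 genes, namely Gnb1, Gngt1, Pde6b, Cnga1, Cngb1, Sag and Pdc. In the 250 bases before the annotated start, the letters TAATCC, the core that CRX is known to bind, were found on either strand in 4 of these 7 promoters (Gngt1, Cnga1, Cngb1 and Sag), against 6.25% of all 32851 promoters of the same length. The letters TGCTGAC, part of the element that NRL is known to bind, were found in 1 of the 7 (Pde6b), against 3.81% of all promoters. No match in Gnb1 or Pdc says only that these letters are not in this window, and no match is evidence of a binding site. The windows of Cngb1, Sag, Pde6b and Gnb1 are shown because they carry these contrasts, with matches in capitals (a match on the other strand reads GGATTA): Cngb1 with its 2 TAATCC matches at chr8:95306586-95306835 on the minus strand, Sag at chr1:87803430-87803679 on the plus strand, Pde6b at chr5:108388123-108388372 on the plus strand, and Gnb1, the one member also used by many cell types, at chr4:155491111-155491360 on the plus strand.
Cngb1: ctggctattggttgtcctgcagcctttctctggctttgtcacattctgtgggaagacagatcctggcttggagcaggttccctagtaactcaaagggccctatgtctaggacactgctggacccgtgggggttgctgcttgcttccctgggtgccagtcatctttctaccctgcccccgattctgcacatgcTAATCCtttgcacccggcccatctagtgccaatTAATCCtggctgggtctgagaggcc
Sag: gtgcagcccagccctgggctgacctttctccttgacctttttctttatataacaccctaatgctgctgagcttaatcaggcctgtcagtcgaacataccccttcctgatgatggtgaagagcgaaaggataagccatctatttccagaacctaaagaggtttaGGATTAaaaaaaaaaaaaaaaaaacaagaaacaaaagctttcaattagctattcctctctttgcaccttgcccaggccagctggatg
Pde6b: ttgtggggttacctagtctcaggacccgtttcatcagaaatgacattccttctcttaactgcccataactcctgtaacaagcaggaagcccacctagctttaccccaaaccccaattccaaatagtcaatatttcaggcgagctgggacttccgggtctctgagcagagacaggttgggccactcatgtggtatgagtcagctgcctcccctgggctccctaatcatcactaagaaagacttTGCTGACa
Gnb1: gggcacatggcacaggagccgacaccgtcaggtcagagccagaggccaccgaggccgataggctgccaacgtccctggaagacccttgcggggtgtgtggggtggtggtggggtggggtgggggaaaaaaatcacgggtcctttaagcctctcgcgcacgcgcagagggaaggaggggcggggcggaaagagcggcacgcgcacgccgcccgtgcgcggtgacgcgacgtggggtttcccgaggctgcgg

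The matches in Cngb1 ended 52 and 19 bases before the start, that in Sag 81 bases before it and that in Pde6b 1 base before it. The shown windows also differed in composition. The Gnb1 window was 69.2% G or C and held 26 CpG dinucleotides, whereas the Cngb1, Pde6b and Sag windows were 55.6%, 49.6% and 42.8% G or C and held 3, 3 and 2. The median over all promoters was 52.4%. The genes lie on several chromosomes: Sag and Pdc on chromosome 1, Cnga1 and Pde6b on 5, Gngt1 on 6, Cngb1 on 8, Gnat1 on 9, Pde6g on 11 and Pde6a on 18, and Gnb1 lies on chromosome 4, as Mfsd2a does.

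All values are intensities on a linear scale, and each log2 difference is the array labelled Mfsd2a KO minus the WT array. No error between samples can be given for 1 array a genotype, no test could be made, and the precision of each value is limited by this number of arrays. The 1 probe set of Mfsd2a read 244 on the array labelled Mfsd2a KO and 181 on the WT array, a log2 difference of 0.43, which is against its label unless the probes lie outside the deleted part, a point not analysed here. The sample is therefore called the array labelled Mfsd2a KO, and every direction rests on that label. A gene was taken as measured when its brighter value was at least the median of the array that held it, 93.4 on the array labelled Mfsd2a KO and 94.2 on the WT array, and 11568 genes were. The only spread available was technical: probe sets of the same gene differed with an SD of 0.0886 on the log2 scale over 5201 genes, and with an SD of 0.0427 over the 268 genes with at least 2 probe sets inside the range of the cascade genes' levels. The 18 probe sets for hybridisation spike-in controls had a median difference of 0.099, with 17 positive, and the 3' to 5' ratio of beta-actin, a measure of RNA integrity, was 1.44 on the array labelled Mfsd2a KO and 1.49 on the WT array.

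The rod activation cascade read nearly alike in the pools. All 10 genes were measured, 0 of them differed by 1.2-fold or more in either direction, against 2.96% of all measured genes (1.17% lower and 1.79% higher), and their brightest probe sets ran from -0.14 (Pde6a) to 0.035 (Pdc) on the log2 scale. Their median log2 difference was -0.015, beside 0.014 over all measured genes. On the array labelled Mfsd2a KO, 6 of the 10 read lower than on the WT array, beside 42.4% of all measured genes. These shares are near the background and are not a result about the cascade. At the smaller size of 1.1-fold 1 of the 10 was counted, Pde6a, against 16.4% of measured genes, and at 1.5-fold 0, against 0.225%. In bulk tissue, fewer rods and less RNA per rod cannot be told apart, and the equalising of the arrays removes any overall difference between the pools.

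**Figure D1:**
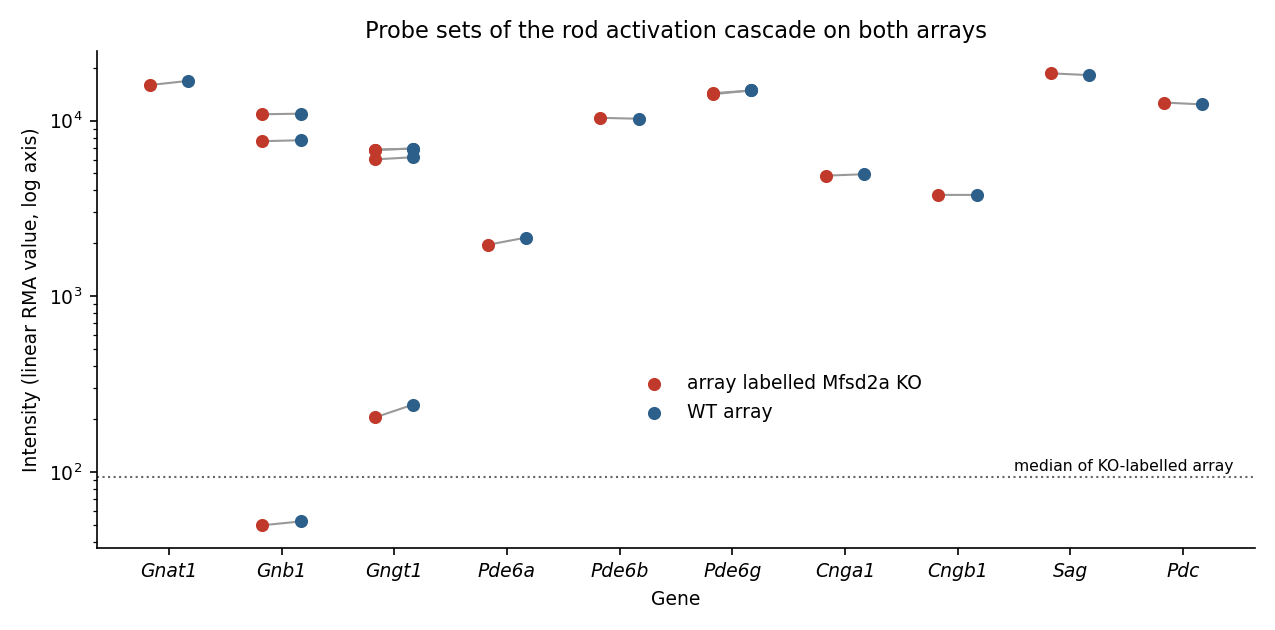
Intensity (linear scale, logarithmic axis) of each of the 16 probe sets on the array labelled Mfsd2a KO (red, left of each pair) and on the WT array (blue, right), with a line joining the values of 1 probe set and a dotted line at the median of the array labelled Mfsd2a KO (93.4); there is 1 array per genotype and so no error bar. The pairs are nearly level, from 18569 and 18137 for Sag to 1961 and 2158 for Pde6a, with 2 dim probe sets of Gngt1 and Gnb1 at the bottom.

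Transducin was read by 8 probe sets over its 3 subunits. Gnat1, the alpha subunit that binds GTP and carries the signal to the phosphodiesterase, read 15928 on the array labelled Mfsd2a KO and 16823 on the WT array. That was 94.7% of the WT value, a log2 difference of -0.079, and 10.4% of 996 other genes whose mean level lay inside the range of the cascade genes had a lower difference.

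Gnb1, the beta subunit of transducin and of heterotrimeric G proteins in many other cells, read 10859 on the array labelled Mfsd2a KO and 10946 on the WT array in its brightest probe set, a difference of -0.011. Its next probe set read 7632 and 7724 on the same arrays (-0.017). The remaining one, at 49.7 on the array labelled Mfsd2a KO and 52.2 on the WT array, lay below the floor. Because Gnb1 is not a rod transcript alone, its value includes RNA of other cells in the eye cup.

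Gngt1, the gamma subunit that anchors rod transducin to the disc membrane through its lipid tail, had 4 probe sets, and all 4 read lower on the array labelled Mfsd2a KO. The 3 bright ones read 6835, 6794 and 6011 on the array labelled Mfsd2a KO and 6924, 6930 and 6184 on the WT array, with differences of -0.019, -0.029 and -0.041. The fourth read 204 on the array labelled Mfsd2a KO and 242 on the WT array, a difference of -0.24, the lowest of the 16 probe sets. This dim probe set lay above the floor, and taking the mean of the 4 gave -0.083. The brightest Gngt1 probe set carries the _x_at suffix, which marks possible cross-hybridisation, and without it the difference was -0.029.

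Phosphodiesterase 6 is built of 2 related catalytic subunits and an inhibitory one, and these differed most among themselves. Pde6a, the alpha catalytic subunit, read 1961 on the array labelled Mfsd2a KO and 2158 on the WT array. At 90.9% of the WT value and a log2 difference of -0.14 it was the lowest of the 10 genes, and 3.81% of the 996 genes of like level had a lower difference. Its partner Pde6b, the beta catalytic subunit, whose loss causes rod degeneration in mice, read 10364 on the array labelled Mfsd2a KO and 10238 on the WT array, a difference of 0.018. The differences of the catalytic subunits were thus 0.16 apart, and each rests on 1 probe set. Pde6g, the inhibitory gamma subunit that transducin displaces, had 2 probe sets. They read 14313 and 14131 on the array labelled Mfsd2a KO against 14831 and 14854 on the WT array, with differences of -0.051 and -0.072.

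The channel subunits read nearly alike on both arrays. Cnga1, the pore-forming subunit that binds cyclic GMP, read 4857 on the array labelled Mfsd2a KO and 4948 on the WT array, 98.2% of the WT value and a difference of -0.027. Cngb1, the modulatory subunit, whose gene also gives the soluble glutamic acid-rich proteins of the rod, read 3774 on the array labelled Mfsd2a KO and 3772 on the WT array, a difference of 0.00084. Which of the transcripts of Cngb1 the probes match was not analysed here.

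The remaining genes read slightly higher on the array labelled Mfsd2a KO. Sag, the arrestin that caps phosphorylated rhodopsin and ends its signalling, read 18569 on the array labelled Mfsd2a KO and 18137 on the WT array, a difference of 0.034. Pdc, phosducin, binds the beta and gamma subunits of transducin. Pdc read 12664 on the array labelled Mfsd2a KO and 12359 on the WT array, a difference of 0.035. Both values were within 1 SD of probe sets of the same gene, 0.0886 over all genes and 0.0427 at like level. The Sag values lay near the top of the arrays, whose highest values were 20568 on the array labelled Mfsd2a KO and 20644 on the WT array.

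**Figure D2:**
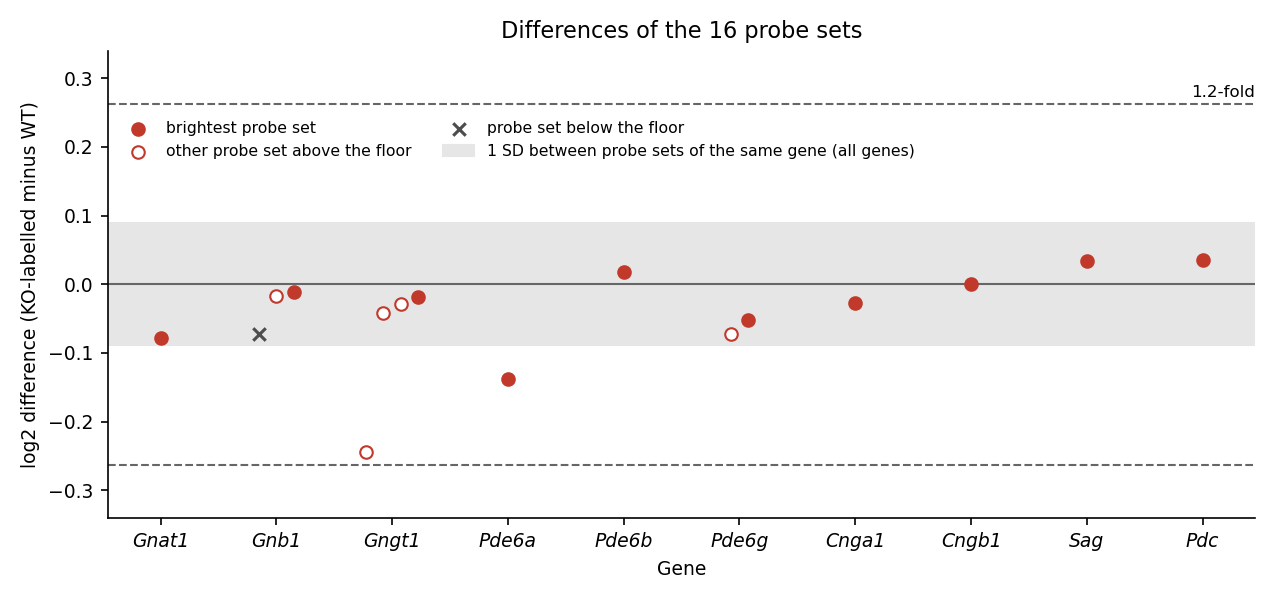
log2 difference (array labelled Mfsd2a KO minus WT array) of the 16 probe sets by gene, with filled points for the brightest probe set of each gene, open points for others above the floor and a cross for the 1 below it; the grey band is 1 SD between probe sets of the same gene over all genes (0.0886) and the dashed lines mark 1.2-fold. The brightest probe sets of 9 genes lie inside the band, Pde6a lies below it at -0.14, and the dim Gngt1 probe set lies lowest at -0.24. The SD at the level of the cascade genes is smaller (0.0427, not drawn), and Gnat1 (-0.079), Pde6g (-0.051) and Pde6a lie below that range.

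By probe set, 12 of the 16 read lower on the array labelled Mfsd2a KO and 4 read higher. Above the floor these counts were 11 and 4. The 3 genes with several probe sets (Gnb1, Gngt1 and Pde6g) read lower in each of them, and the other 7 genes had 1 probe set each. Probe sets of 1 gene are not separate members, and 4 of the 12 are of Gngt1. The share over all probe sets was not computed, so this count is not a result about the cascade. The SD of the log2 differences over the 10 genes was 0.054, against 0.085 over the 996 other measured genes of like level, whose mean intensities lay between 2057 and 18352. The median absolute difference was 0.030 in the cascade, 0.042 in those genes and 0.060 over all measured genes. Bright genes thus differed less between the arrays in general: 11 of the 996 genes of like level were past 1.2-fold, and their central 95% ran from -0.16 to 0.16, against -0.21 to 0.23 over all measured genes.

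**Figure D3:**
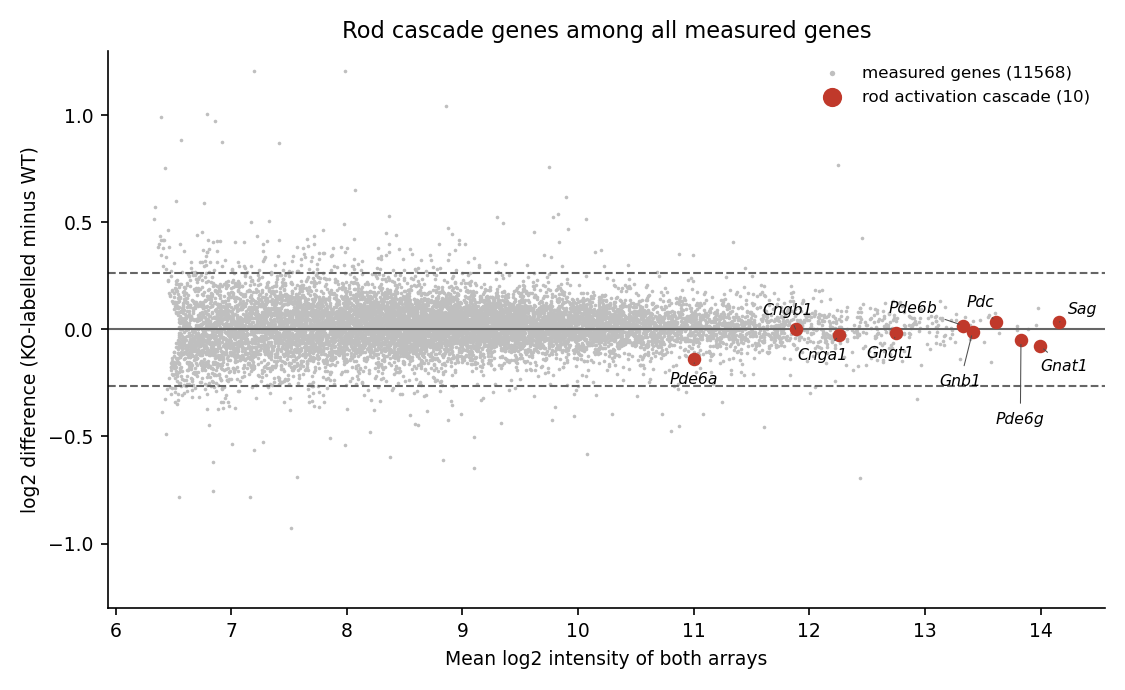
log2 difference (array labelled Mfsd2a KO minus WT array) against the mean log2 intensity of both arrays for the 11568 measured genes (grey), each by its brightest probe set, with the 10 cascade genes in red and 1.2-fold as dashed lines. The cascade genes lie at the bright end, between -0.14 and 0.035, where the cloud of other genes is narrow.

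A separate list of genes that end or tune the rod response was read on the same arrays. Sag, which also ends rhodopsin signalling, is counted here with the cascade and not in that list. Of the 10 measured genes of shut-off and calcium feedback, 9 read lower on the array labelled Mfsd2a KO, beside 42.4% of all measured genes. At least 1.2-fold lower were 3 of them, where 1.17% of measured genes were that much lower. The median log2 difference of the 10 was -0.20 against -0.015 in the activation cascade. One of the 9, the guanylate cyclase gene Gucy2e, read 91.9 on the array labelled Mfsd2a KO, below its floor, and 105 on the WT array, and so was counted only through the array where it is higher. Over the 9 genes above the floor on both arrays, 8 read lower and the median was -0.21. Guca1a, which encodes a calcium sensor that activates guanylate cyclase, read 2671 on the array labelled Mfsd2a KO and 3663 on the WT array (-0.46). The related sensor gene Guca1b read 6964 and 8731 in the same order (-0.33), and Grk1, the rhodopsin kinase that prepares rhodopsin for arrestin, read 510 and 641 (-0.33).

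Grk1 and Sag act in sequence on the same receptor, and their differences were -0.33 and 0.034. The complex that speeds GTP hydrolysis by Gnat1 read -0.24 for its catalytic member Rgs9 (-0.050 in the least different of 3 probe sets), -0.21 for its anchor Rgs9bp and -0.11 for Gnb5. The exchanger Slc24a1, which expels the calcium that enters through the channel, differed by -0.19, beside -0.027 for Cnga1 and 0.00084 for Cngb1. Recoverin (Rcvrn) differed by -0.024, and Atp2b1, a calcium pump of many cells, was the 1 gene above 0, at 0.048 by its brightest probe set. The lowest of the 3 Atp2b1 probe sets differed by -0.032. Earlier results of these arrays were known when this list was drawn up, and the difference between the lists was not tested.

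Cones use their own versions of most of these proteins. The 7 measured genes listed as cone counterparts had a median of 0.017. Of these, 3 were below 0, beside 42.4% of all measured genes, and 0 were past 1.2-fold, beside 2.96%. They include the phosducin-like gene Pdcl (-0.039, and 0.085 in its other probe set), whose use in cones was not examined here. The separate list of 5 cone markers shares Gnat2, Pde6h and Arr3 with the counterparts and adds the opsins. Against the same shares, 4 of the 5 markers were below 0 and 1 was past 1.2-fold, with a median of -0.071. The 1 was Opn1mw, the medium wavelength opsin, at -0.28. Set beside their rod partners, the cone transducin alpha gene Gnat2 read 1978 on the array labelled Mfsd2a KO and 2208 on the WT array (-0.16, beside -0.079 for Gnat1), and the beta gene Gnb3, which ON bipolar cells also use, read 2615 and 2409 in the same order (0.12, beside -0.011 for Gnb1). The catalytic phosphodiesterase gene Pde6c differed by 0.091. The inhibitory Pde6h differed by -0.053 and -0.15 in its 2 probe sets, beside -0.051 and -0.072 for Pde6g. Cngb3 differed by 0.025 and the cone arrestin gene Arr3 by 0.017, beside 0.00084 for Cngb1 and 0.034 for Sag. The cone gamma gene Gngt2, at 63.6 and 69.1, was below the floor.

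Of the 7 measured factors that drive photoreceptor genes, 0 were past 1.2-fold by the brightest probe set, beside 2.96% of all measured genes. Nrl differed by -0.019, reading 12659 on the array labelled Mfsd2a KO and 12824 on the WT array. Crx read 7437 and 6890 in the same order in its brighter probe set (0.11, and 0.13 in the other), and Otx2, which acts upstream of Crx, differed by 0.14. Neurod1 differed by 0.10, Mef2d by 0.0051, Rorb by -0.027 and Esrrb by -0.12, and the median of these 7 genes was 0.0051. Other probe sets ran up to 0.15 for Rorb and down to -0.25 for Esrrb. Cngb1, Gngt1, Cnga1 and Sag, whose windows hold TAATCC, differed by between -0.027 and 0.034, and Pde6b, whose window holds TGCTGAC, by 0.018. Gnb1 and Pdc, whose windows hold neither, differed by -0.011 and 0.035. Windows of Gnat1, Pde6a and Pde6g were not matched, and no link between these letters and the values was tested.

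Proteins that carry or fold the cascade were read as well. Unc119, which shuttles the lipid-bearing transducin alpha subunit, differed by -0.019. Pde6d, which carries prenylated phosphodiesterase subunits, differed by 0.014, and Aipl1, the chaperone phosphodiesterase 6 needs, by -0.0088. The disc proteins Rom1 and Prph2 differed by -0.069 and -0.052. The list also held Glb1l2 and Glb1l3, for which no role in the cascade is established. Of its 9 measured genes 6 read lower, those 2 among them, beside 42.4% of all measured genes, and the median was -0.019. Glb1l3 was the 1 gene past 1.2-fold, beside 2.96% of all measured genes. It read 88.5 on the array labelled Mfsd2a KO, below its floor, and 149 on the WT array. It thus passed the filter only through the array where it is high.

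Relatives of the cascade genes that serve cells outside the photoreceptors had a median of 0.045 over 12 measured genes. Of these, 9 read higher and 3 lower, beside 42.4% of all measured genes lower. By the brightest probe set 0 were past 1.2-fold, beside 2.96% of all measured genes. Gnb2, a beta subunit of many cell types, differed most, at 2195 on the array labelled Mfsd2a KO and 1860 on the WT array (0.24), beside -0.011 for Gnb1. The arrestins of other receptors, Arrb1 and Arrb2, differed by 0.080 and 0.12, and Gnao1, the G protein alpha gene of ON bipolar cells and other neurons, by 0.049. Some other probe sets were past 1.2-fold, with -0.28 as the lowest of 3 for Gnao1 and 0.34 as the highest of 3 for Gnb4.

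**Figure D4:**
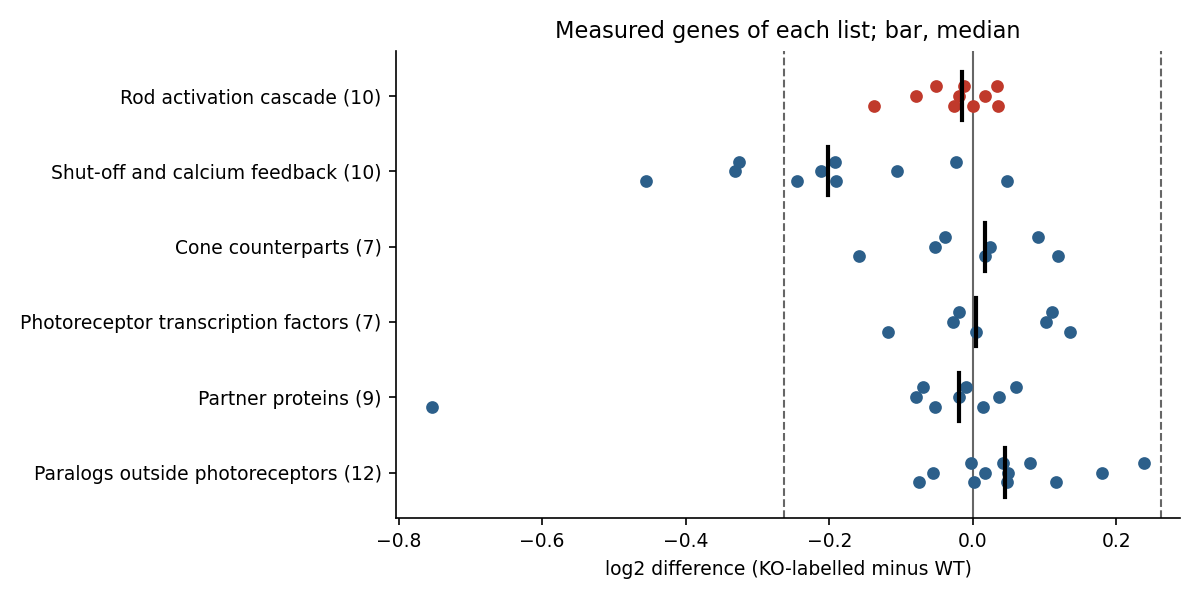
log2 difference (array labelled Mfsd2a KO minus WT array) of the measured genes of 6 lists, 1 point per gene by its brightest probe set, with the number of genes in brackets, a black bar at each median and dashed lines at 1.2-fold. The activation cascade (red) lies around its median of -0.015, while the median of shut-off and calcium feedback lies at -0.20. The point farthest left, at -0.75, is Glb1l3, which has no established role in the cascade and lay below the floor on the array labelled Mfsd2a KO.

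The summed intensity of the 10 cascade genes on the array labelled Mfsd2a KO was 99.0% of that on the WT array. Markers of several other cell types of the eye cup differed more, and their part in the values of the cascade was not tested. Over all measured genes, 42.4% read lower, 1.17% were at least 1.2-fold lower and 1.79% at least 1.2-fold higher. For microglia 6 of 6 measured markers read higher, 5 of them past 1.2-fold, with a median of 0.38. Their sum was 117% of WT and rested largely on Csf1r (1139 on the array labelled Mfsd2a KO and 1120 on the WT array). Cx3cr1 was counted by its brighter probe set (151 and 114 in the same order, 0.41), and its other probe set differed by 0.014. For pigment epithelium 4 of 5 read lower, 3 past 1.2-fold, with a median of -0.30, while the sum of 93.9% rested largely on Ttr (16010 and 15804 in the same order). Pigment cell markers read lower in 5 of 5, with a sum of 89.4%, ganglion cell markers in 5 of 6, with 86.9%, and cone markers in 4 of 5, with 92.9%. Some markers of tissue that the dissection was to remove were above the floor on both arrays. These were 4 lens markers, all higher on the array labelled Mfsd2a KO with a sum of 120% of WT, and 4 of cornea and conjunctiva, all lower with a sum of 77.9%. The lens marker Bfsp2 and the cornea marker Aldh3a1 were above it on the WT array alone, and Mip and Bfsp1 were below it on both. Mueller glia, whose sum was 99.5%, and amacrine cells, at 101%, were close to the cascade, and bipolar cells were at 108%. Endothelium markers read lower in 4 of 5, with a sum of 91.7%, and skeletal muscle markers in 2 of 4, with 101%. The horizontal cell sum of 87.0% rested largely on Calb1 (-0.25), while Lhx1 differed by 0.40 and Onecut1 by 0. No marker had an intensity of 0 on either array.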

How the data were processed

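Total RNA from eye cups at postnatal day 13 was measured on 2 arrays, 1 pool of 6 animals per genotype. The authors deposited linear intensities of 45101 probe sets. Tools named in the submitters' processing notes are Partek 6.6 and RMA; their order and settings are not given in the sources used here. RMA equalises the arrays' distributions and shrinks differences of dim probe sets.

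Base 2 logarithms were taken, and each gene was represented by its brightest probe set (mean of both arrays) among those with its symbol alone, leaving out 64 controls. All 10 cascade genes matched RefSeq (GRCm38.p6) by Entrez identifier, and 0 symbols changed. The floor was each array's median, without the controls, and the brighter array had to reach it, which favours a difference in genes near it. Genes were counted at 1.2-fold, with 1.1-fold and 1.5-fold as alternatives. Further alternatives were the mean of probe sets, a higher floor (70th percentile), no floor, leaving out _s_at and _x_at probe sets, centring, and removal of a loess trend (span 0.3, 3 iterations).

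All probe sets of the cascade are given. In the other lists, any measured gene could be named, and some are given by counts only. The members and lists were chosen with earlier results of these data known. Python 3.11.15, numpy 2.4.6, pandas 2.3.3, statsmodels 0.14.6 and matplotlib 3.10.9 were used. The steps were tested on simulated data.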

Additional observations from a re-analysis of the deposited data

How the results depend on the processing

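No paired analysis was possible because there was a single array of pooled RNA for a genotype. Under the 6 alternatives of floor, probe set and scaling, 0 of the 10 cascade genes were past 1.2-fold. None of the 10 moved by more than the SD between probe sets of the same gene over all genes (0.0886). Gngt1 moved by more than the smaller SD at like level (0.0427), from -0.019 to -0.083 with the mean of probe sets. At 1.1-fold 1 was counted (Pde6a), against 16.4% of measured genes, and at 1.5-fold 0. Their median ran from -0.030 with the mean of probe sets to -0.015 with no floor. With the loess trend removed or the arrays centred, 7 of 10 read lower in place of 6, because Cngb1 differed by -0.012 and -0.013. The 342 measured genes past 1.2-fold were 207 higher and 135 lower. With no floor 18193 genes entered, and 1021 were past 1.2-fold (406 higher and 615 lower). With the higher floor 8139 entered, and 157 were past it (95 and 62). The same 11568 genes gave 1900 (1137 and 763) at 1.1-fold and 26 (16 and 10) at 1.5-fold. Of the genes past 1.2-fold, 60.5% read higher in the main setting and 39.8% with no floor. With the arrays centred the split was 179 and 170, and with the loess trend removed 193 and 154. A floor that both arrays had to reach, added after seeing the data, left 174 and 112, and the 10 cascade genes kept their values. With 1 array per genotype, the effects of genotype, pool make-up, dissection and handling cannot be told apart, and no difference has a replicate check.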
